A study of Mus musculus with 6 samples.

Results

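Inhibitory receptors outside the Ly49, NKG2 and CD28 families were examined in mouse small-intestinal intraepithelial lymphocytes (IEL), T cells that sit between the epithelial cells of the gut. The genes were Lilrb4a, Pirb, Ceacam1, Cd72 and Cd160, and their probe sets were selected by gene symbol, either alone or in a list of several symbols, in the annotation of the array. The 5 genes are among 8949 named by the annotation, and they gave 10 of the 12488 probe sets, of which 5 carried 1 symbol and 5 carried several. The 3 subsets were TCRgd CD8aa, TCRab CD8aa and TCRab CD8ab IEL, named after the T cell receptor and the CD8 dimer, all freshly isolated from untreated C57BL/6 mice under 8 weeks of age. Conventional CD8 T cells carry the CD8ab dimer, and the CD8aa dimer is typical of unconventional IEL. Each subset was measured on 2 Affymetrix arrays, 1 in each of 2 experiments. In each experiment all 3 subsets were sorted from 1 new pool of 20 mice, so no array shows a single animal. Some sample titles write TCRgb where the source description writes TCRgd, and the source description was followed.

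Inhibitory receptors of leukocytes lower the response of a cell to its activating receptors. Most carry short tyrosine motifs (ITIMs) in the cytoplasmic tail, which recruit phosphatases such as SHP-1 when phosphorylated. Lilrb4a (gp49B) is an ITIM receptor known from mast cells, myeloid cells and activated lymphocytes, and its neighbour Lilr4b (gp49A) is a close relative with a short tail that lacks the motif. Pirb binds MHC class I on myeloid cells and B cells and has activating relatives, the Pira receptors. Ceacam1 is a homophilic adhesion receptor of epithelium and activated T cells, Cd72 is a lectin-like coreceptor of B cells that binds the semaphorin Sema4d, and Cd160 is a lipid-anchored receptor of IEL and NK cells that binds the TNF receptor family member HVEM.

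Signals are MAS5 values on a linear scale, given for experiment 1 and then experiment 2 within a subset, and values under 15.3 were set to that floor before log2 was taken. A difference passed, or was called, at an adjusted p under 0.05 over all tested probe sets in limma, a linear model for arrays, fitted with and without the experiment as a block. The labelled cell types were checked against T cell markers. All 8 T cell markers on the array passed the filter on dim probe sets, which asked for at least 2 arrays above a signal of 56.4. Cd8b1, the CD8 beta chain gene, had signals of 28.1 and 763 in TCRgd CD8aa, 29.5 and 182 in TCRab CD8aa, and 17647 and 27591 in TCRab CD8ab. The median signal of an array lay between 83.4 and 113. The 2 experiments differed widely. The 3′ over 5′ signal ratio of the beta-actin control was 1.41 to 1.76 on the arrays of experiment 1 and 40.4 to 52.2 on those of experiment 2, and 34.1% of the 8299 tested probe sets differed between them. Summed enterocyte marker signal was 27110 on the TCRgd CD8aa array of experiment 2, against 1300 to 2638 on the other 5 arrays, and that of 3 goblet and Paneth cell markers was 3697 on that array, against 210 to 468 on the others.

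The windows upstream of Lilr4b, Cd72 and Cd160 are shown because these genes had probe sets of their own with signal far above the floor on all 6 arrays. Each holds the 250 bases before the annotated start, taken from RefSeq (build GRCm38.p6) and written in the direction of the gene. Cd160 had 2 entries there, and the first was taken. Capitals mark matches, on either strand, to the Runx motif TGTGGT, the Ets motif GGAAGT or the AP-1 motif TGANTCA.
Lilr4b, chr10:51480362-51480611, plus strand: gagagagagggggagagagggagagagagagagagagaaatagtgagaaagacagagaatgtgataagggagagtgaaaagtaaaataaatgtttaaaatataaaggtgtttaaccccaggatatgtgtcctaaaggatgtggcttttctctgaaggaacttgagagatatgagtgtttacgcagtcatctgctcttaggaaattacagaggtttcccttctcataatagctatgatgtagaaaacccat
Cd72, chr4:43454627-43454876, minus strand: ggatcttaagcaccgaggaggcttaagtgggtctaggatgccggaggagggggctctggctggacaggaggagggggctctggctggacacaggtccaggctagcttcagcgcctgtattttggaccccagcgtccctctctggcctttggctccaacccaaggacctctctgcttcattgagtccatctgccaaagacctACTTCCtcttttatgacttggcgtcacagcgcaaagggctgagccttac
Cd160, chr3:96829352-96829601, minus strand: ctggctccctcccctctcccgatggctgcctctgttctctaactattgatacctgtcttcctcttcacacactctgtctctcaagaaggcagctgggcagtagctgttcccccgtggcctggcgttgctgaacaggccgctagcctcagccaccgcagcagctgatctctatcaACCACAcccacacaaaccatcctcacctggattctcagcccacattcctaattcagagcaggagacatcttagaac
The Cd72 window held 1 Ets match, which begins 49 bases before the start, and the Cd160 window 1 Runx match, which begins 76 bases before it. The Lilr4b window held none of the 3 motifs and opened with an unbroken run of 40 purines. Of 32851 such windows, 19.7% held the Ets motif, 14.0% the Runx motif and 6.75% the AP-1 motif. These matches describe letters only, since the arrays measured RNA and no binding.

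Lilrb4a, measured together with its neighbour Lilr4b, was the 1 receptor that passed between subsets, and it did so in the blocked fit. Their shared probe set had signals of 2434 and 1898 in TCRgd CD8aa IEL, 458 and 526 in TCRab CD8aa IEL, and 2321 and 2087 in TCRab CD8ab IEL, in experiments 1 and 2. Both TCRab CD8aa arrays lay below all 4 other arrays, and the arrays of the 2 other subsets overlapped. TCRab CD8aa IEL had 4.48-fold less signal than TCRab CD8ab IEL, or 5.07-fold less in experiment 1 and 3.97-fold less in experiment 2. Because the probe set carries both symbols, the receptor with ITIMs and its relative without them cannot be told apart in this signal. In RNA from a sorted population, fewer cells with the transcript and less RNA per cell cannot be told apart either.

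**Figure D1:**
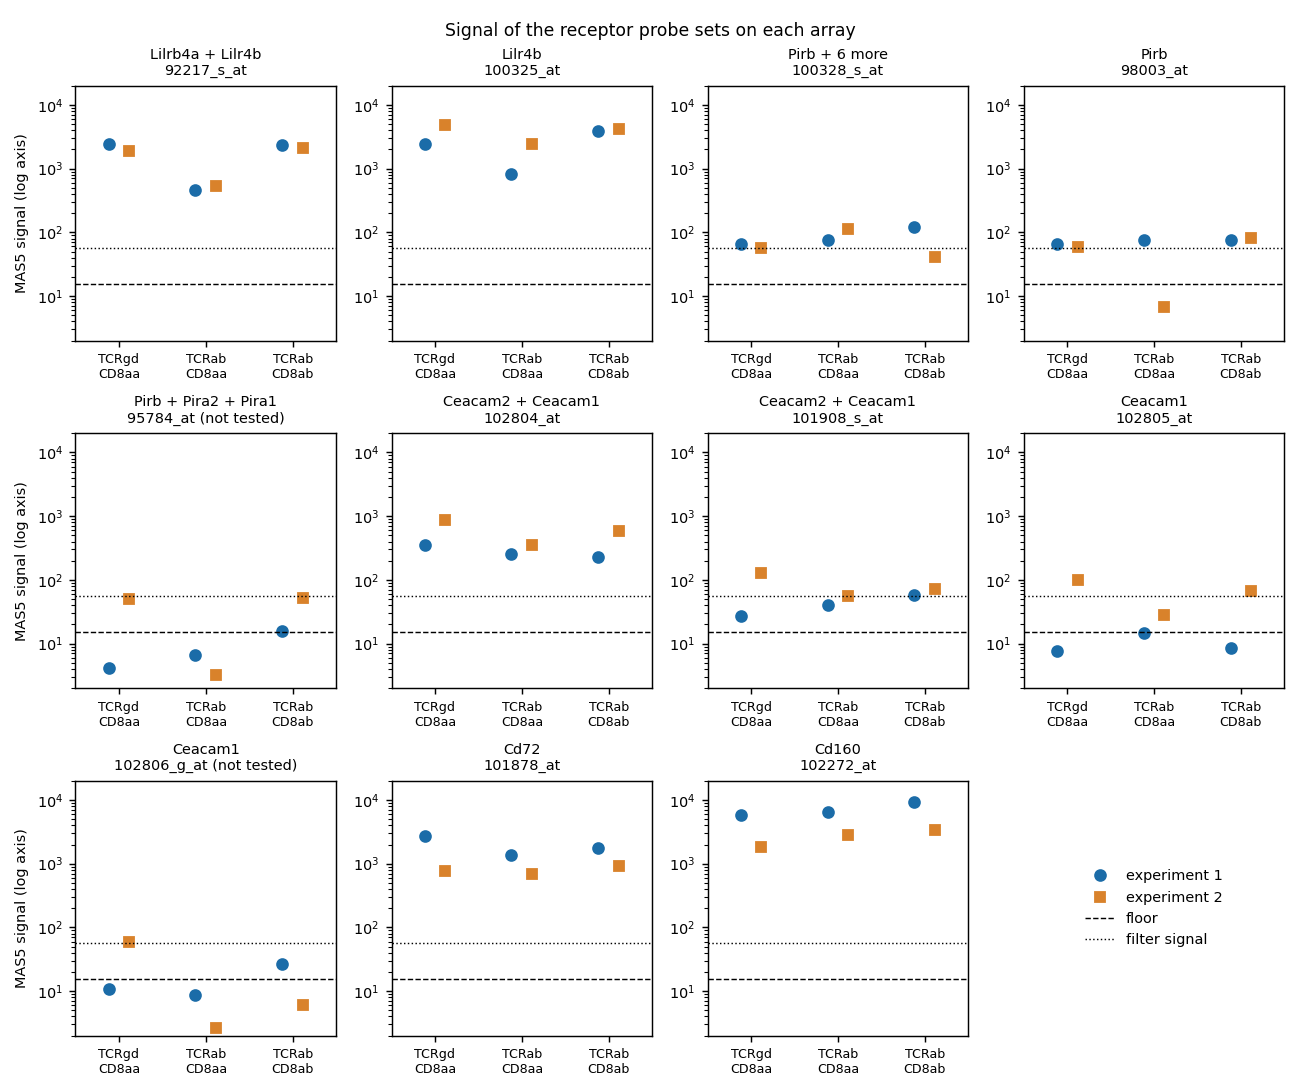
MAS5 signal (log axis) of the 10 receptor probe sets and of the probe set for Lilr4b alone, on the 2 arrays of each subset, with circles for experiment 1 and squares for experiment 2. The dashed line is the floor of 15.3 and the dotted line the filter signal of 56.4; in the first panel both TCRab CD8aa points lie below the other 4.

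On the log2 scale the shared probe set averaged 8.94 ± 0.14 in TCRab CD8aa and 11.10 ± 0.11 in TCRab CD8ab (SD, n = 2 each). The difference was −2.17 ± 0.30 (SE) and passed in limma with the experiment as a block (adjusted p = 0.013). It ranked 30 by p in that fit, which called 0.819% of the 8299 tested probe sets. It did not pass in the fit without the block (adjusted p = 0.714), which called 0% of them. With the block it no longer passed when either TCRab CD8aa array was left out (adjusted p = 0.13 without that of experiment 1 and 0.0754 without that of experiment 2), without the filter on dim probe sets (0.522) or without the intensity trend (0.153).

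TCRgd CD8aa IEL also had more of this signal than TCRab CD8aa IEL, although both carry the CD8aa dimer. The shared probe set averaged log2 11.07 ± 0.25 in TCRgd CD8aa and 8.94 ± 0.14 in TCRab CD8aa (SD, n = 2 each), a difference of 2.13 ± 0.30 (SE), or 4.38-fold. The values within experiments 1 and 2 were 2.41 and 1.85. It ranked 3 by p in limma with the block and did not pass (adjusted p = 0.111), in a comparison where that fit called 2 probe sets, or 0.0241%. Over the 31 alternatives run the difference ranged from 1.90 to 2.36. It passed only where a lone TCRgd CD8aa array was left, whose spread was then taken from the other subsets. Between TCRgd CD8aa and TCRab CD8ab the difference was −0.03, with a 95% confidence interval from −0.71 to 0.65 in the blocked fit.

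The probe set for Lilr4b alone, the receptor without ITIMs, had signals of 2401 and 4866 in TCRgd CD8aa, 826 and 2418 in TCRab CD8aa, and 3858 and 4202 in TCRab CD8ab. TCRab CD8aa was lowest in each experiment, but its array of experiment 2 lay above the TCRgd CD8aa array of experiment 1. The difference of TCRab CD8aa from TCRab CD8ab was log2 −1.51 ± 0.36 (SE, n = 2) and did not pass with the block (adjusted p = 0.139). The value of −2.22 in experiment 1 stood beside −0.80 in experiment 2. This probe set was higher in experiment 2 by 0.90 ± 0.30 (limma adjusted p = 0.0438), whereas the shared one differed by −0.10 ± 0.25 (adjusted p = 0.779).

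**Figure D2:**
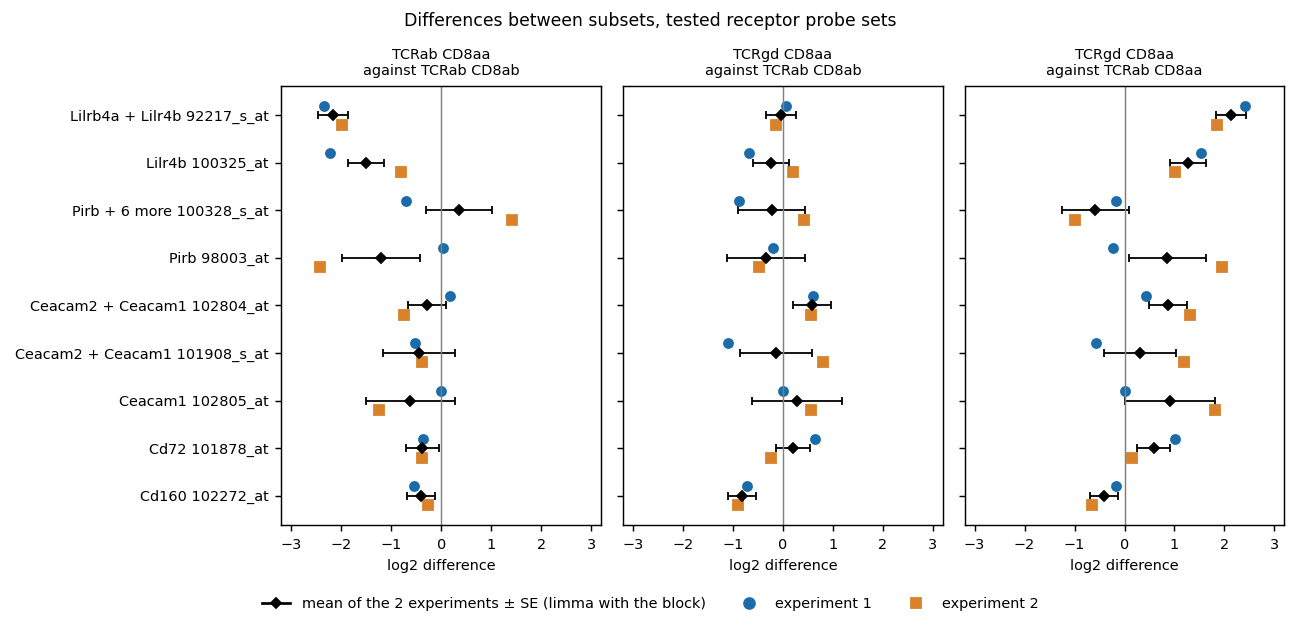
Log2 differences between subsets for the 8 tested receptor probe sets and Lilr4b, with circles for experiment 1, squares for experiment 2, and diamonds with bars for their mean ± SE from limma with the block. For the shared Lilrb4a and Lilr4b probe set both experiments lie near −2.17 in the first panel and near 2.13 in the third. Points at 0 for the tested Ceacam1-only probe set stand for arrays at the floor in experiment 1.

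Mast cells and macrophages are known sources of Lilrb4a, so their markers were set beside this result. Summed signal of the 10 mast cell markers was 3258 and 1960 in TCRgd CD8aa, 3170 and 1730 in TCRab CD8aa, and 1684 and 839.7 in TCRab CD8ab. Kit, which IEL also express, was the largest part of this sum on all 6 arrays, while Fcer1a and Cpa3 were at the floor on 3 of 6 arrays each. On the TCRgd CD8aa array of experiment 2 Mcpt1 reached 332 and Mcpt2 245, against 13.0 to 57.5 and 5.50 to 23.8 on the others. Fcer1a (76.2) and Ms4a2 (67.1) were also highest on that array, whereas Tpsb2 was lowest there (65.8). The list was summed again without Kit, a choice made after the values were seen. The other 9 genes came to 450.1 and 933.8 in TCRgd CD8aa, 539.3 and 295.8 in TCRab CD8aa, and 358.0 and 444.7 in TCRab CD8ab, so TCRab CD8aa was above TCRab CD8ab in experiment 1 and below it in experiment 2. Of the 5 tested mast cell genes, 3 were higher and 2 lower in TCRab CD8aa than in TCRab CD8ab, and none passed in limma with the block.

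The 15 macrophage and dendritic cell markers summed to 3357 and 3163 in TCRgd CD8aa, 2799 and 1409 in TCRab CD8aa, and 2335 and 2348 in TCRab CD8ab. Itgax, an integrin chain also found on IEL, was the largest part on all 6 arrays, and Lyz2 and Itgam were at the floor on 5 of 6 arrays and Adgre1 on 4. Lyz2 reached 303 on the TCRgd CD8aa array of experiment 2. Without Itgax, left out after the values were seen, the sum was 1124 and 2248 in TCRgd CD8aa, 1107 and 783.6 in TCRab CD8aa, and 1653 and 1617 in TCRab CD8ab. The remaining 14 genes thus summed to less in TCRab CD8aa than in TCRab CD8ab in both experiments, the same direction as the shared probe set. In experiment 1 their sum in TCRgd CD8aa was near that in TCRab CD8aa and below that in TCRab CD8ab. The shared probe set was instead high in TCRgd CD8aa in that experiment. Of the 10 tested genes of this list 7 were lower in TCRab CD8aa, though none passed in limma with the block. The 3 higher were Itgax (log2 0.54), C1qc (0.25) and C1qa (0.06). Cd83, an activation marker of dendritic cells and lymphocytes, had log2 differences of −2.13 and −1.46 in experiments 1 and 2, and Cd68, a lysosomal protein of macrophages, −0.95 and −1.64. Cd68 had signals of 174 and 76.1 in TCRgd CD8aa, 171 and 85.6 in TCRab CD8aa, and 330 and 266 in TCRab CD8ab. The part of mast cells, macrophages and dendritic cells in the Lilrb4a and Lilr4b signal was not tested.

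**Figure D3:**
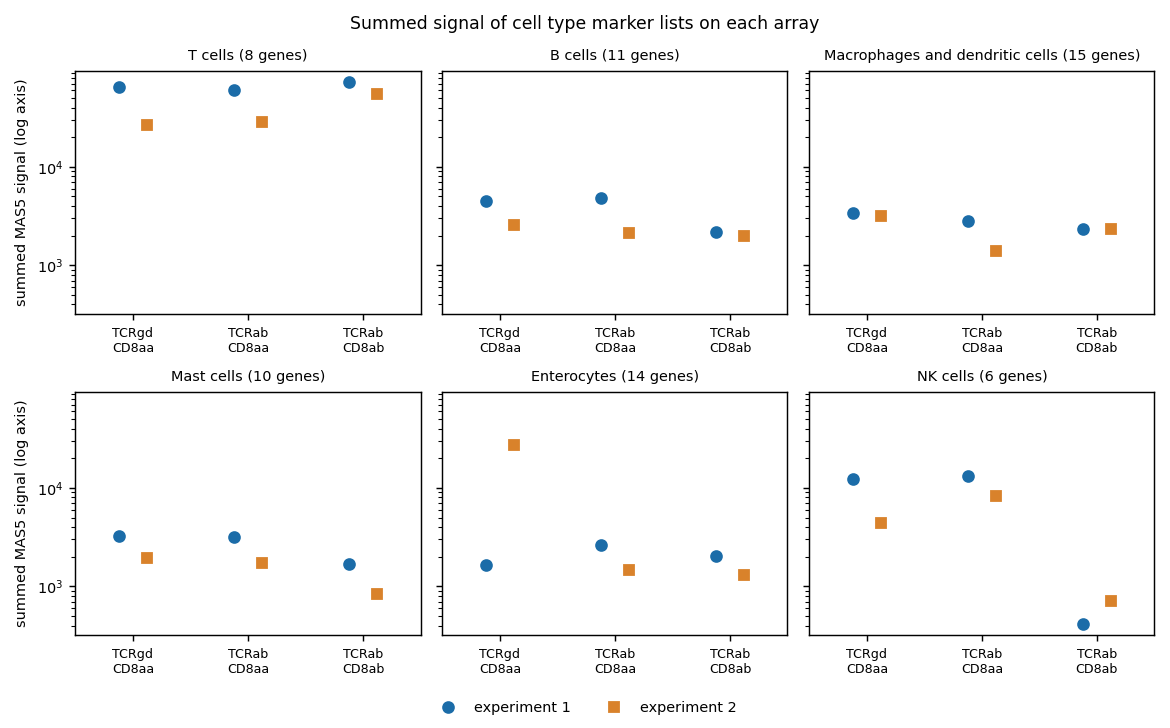
Summed MAS5 signal (log axis) of marker genes of 6 cell types on each array, with circles for experiment 1 and squares for experiment 2. The enterocyte sum of the TCRgd CD8aa array of experiment 2, at 27110, stands above the other 5 arrays.

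Pirb was near the lower end of the measurable range in all 3 subsets, and no difference between them passed. Of its 3 probe sets, the one that carries only Pirb had signals of 65.5 and 59.0 in TCRgd CD8aa, 76.8 and 6.70 in TCRab CD8aa, and 75.4 and 82.5 in TCRab CD8ab. The TCRab CD8aa array of experiment 2 was at the floor, and the other 5 arrays lay close together. The difference of TCRab CD8aa from TCRab CD8ab was log2 −1.20 ± 0.78 (SE, n = 2; limma with the block, adjusted p = 0.645), with 0.03 in experiment 1 and −2.43 in experiment 2. A probe set that carries Pirb with Lilra6, Pira1, Pira2 and 3 predicted genes ranged from 41.7 to 123 over the 6 arrays. Its difference for the same comparison had opposite signs in the 2 experiments, −0.71 and 1.42. The third, shared with Pira1 and Pira2, did not pass the filter on dim probe sets and was not tested. It was at the floor on 3 arrays, among them both TCRab CD8aa arrays, and reached 49.6 and 51.3 on the TCRgd CD8aa and TCRab CD8ab arrays of experiment 2.

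Ceacam1 gave no difference between subsets that passed, and its brightest probe set differed between experiments. That probe set, 1 of 4 and shared with Ceacam2, had signals of 347 and 872 in TCRgd CD8aa, 258 and 352 in TCRab CD8aa, and 229 and 590 in TCRab CD8ab. Every subset was higher in experiment 2, by 1.05 ± 0.31 log2 units on average (SE; limma adjusted p = 0.0285). TCRgd CD8aa was above TCRab CD8aa within both experiments, by 0.43 and 1.31, and above TCRab CD8ab by 0.60 and 0.56. Neither difference passed with the block (adjusted p = 1.00 and 0.723).

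The other Ceacam1 probe sets were dim. The second shared with Ceacam2 ranged from 26.9 to 127, and those for Ceacam1 alone from 7.70 to 98.2 and from 2.60 to 59.8. The last 2 were at the floor on 3 and 4 of the 6 arrays, and the dimmer of them was not tested. In each of the 4 probe sets the highest array was that of TCRgd CD8aa in experiment 2, which also carried the raised enterocyte markers. Epithelium expresses Ceacam1, and the part of those cells in this signal was not tested. Without that array the blocked fit gave a difference of TCRgd CD8aa from TCRab CD8ab of 0.37 in the brightest probe set, in place of 0.58. The difference measured within experiment 1 was 0.60. For the tested Ceacam1-only probe set the fit gave −0.31, in place of 0.29. Its arrays of experiment 1 were all at the floor, with a difference of 0. That −0.31 therefore reflects the shift between experiments in the other subsets and is no measured reversal.

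Cd72, best known from B cells, gave signal well above the floor on the arrays of all 3 subsets. It measured 2748 and 768 in TCRgd CD8aa, 1359 and 690 in TCRab CD8aa, and 1761 and 905 in TCRab CD8ab. The ranges of the 3 subsets overlapped, and each array of experiment 1 lay above each of experiment 2. The log2 difference of TCRab CD8aa from TCRab CD8ab was −0.37 in experiment 1 and −0.39 in experiment 2, with a mean of −0.38 ± 0.33 (SE, n = 2; limma with the block, adjusted p = 0.74). TCRgd CD8aa differed from TCRab CD8ab by 0.64 and −0.24 in the 2 experiments, and from TCRab CD8aa by 1.02 and 0.15.

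B cell markers were set beside this signal. Cd79a ranged from 50.7 to 206 and Ms4a1 from 85.8 to 407, and both were highest on the TCRab CD8ab array of experiment 2. Cd72 was highest on the TCRgd CD8aa array of experiment 1. Cd79b had signals of 629 and 744 in TCRgd CD8aa, 429 and 500 in TCRab CD8aa, and 423 and 519 in TCRab CD8ab. Cr2 was at the floor on all 6 arrays and Cd22 on 4. Summed signal of the 11 B cell markers was 4513 and 2541 in TCRgd CD8aa, 4845 and 2112 in TCRab CD8aa, and 2195 and 1998 in TCRab CD8ab. Ighm was the largest part on 4 arrays and, with the block, was higher in TCRab CD8aa than in TCRab CD8ab by log2 1.85 ± 0.31 (SE, n = 2; limma adjusted p = 0.0288, and 1.00 without the block). That is its brightest probe set. Its other tested probe sets differed by 0.85, 0.10, −0.61, −0.90 and −0.0042, and none of them was called. Of the 8 tested B cell markers, Ighm and Ighd were higher and the other 6 lower in TCRab CD8aa, the direction of Cd72, with a median of log2 −0.83 beside −0.06 over all genes. None of those 6 passed, among them Ms4a1 (log2 −1.16), Blk (−1.01), Cd79a (−0.88) and Pax5 (−0.77). Most of this came from experiment 2. In experiments 1 and 2 Ms4a1 had −0.08 and −2.25, Blk −0.35 and −1.67, Cd79a 0.25 and −2.02, and Pax5 −0.07 and −1.47. Pou2af1 had −1.98 and −0.01, and Cd79b 0.02 and −0.05, beside −0.37 and −0.39 for Cd72. Without Ighm, left out after the values were seen, the sum was 1112 and 1893 in TCRgd CD8aa, 940.4 and 1006 in TCRab CD8aa, and 929.7 and 1736 in TCRab CD8ab. The part of B cells in the Cd72 signal was not tested.

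Cd160, the receptor of this group best known from IEL, had strong signal on every array. It measured 5717 and 1822 in TCRgd CD8aa, 6481 and 2846 in TCRab CD8aa, and 9452 and 3411 in TCRab CD8ab. Within each experiment the order was the same, TCRab CD8ab above TCRab CD8aa above TCRgd CD8aa, but across experiments the ranges of the 3 subsets overlapped. The log2 difference of TCRgd CD8aa from TCRab CD8ab was −0.73 and −0.91, a mean of −0.82 ± 0.28 (SE, n = 2), with a 95% confidence interval from −1.46 to −0.17 in the blocked fit. This did not pass over all probe sets (limma with the block, adjusted p = 0.456). The differences between neighbours in that order did not pass either. TCRab CD8aa minus TCRab CD8ab was −0.40 ± 0.28, and TCRgd CD8aa minus TCRab CD8aa was −0.41 ± 0.28 (SE, n = 2; limma with the block, adjusted p = 0.683 and 1.00). NK cells also express Cd160, and the 6 NK cell markers on the array summed to 12424 and 4362 in TCRgd CD8aa, 13228 and 8213 in TCRab CD8aa, and 412.5 and 712 in TCRab CD8ab. Tyrobp and Fcer1g, signalling adaptors that CD8aa IEL also express, made up most of this sum in both CD8aa subsets. The sum was then taken without them, a choice made after the values were seen. It was 102.8 and 202.4 in TCRgd CD8aa, 134.6 and 94.1 in TCRab CD8aa, and 184.2 and 215.0 in TCRab CD8ab. This sum was highest in TCRab CD8ab in each experiment, where Eomes made up most of it. Eomes, a transcription factor of NK cells and memory T cells, had signals of 15.7 and 64.9 in TCRgd CD8aa, 35.7 and 1.70 in TCRab CD8aa, and 141 and 134 in TCRab CD8ab. Ncr1, a defining NK cell receptor, was at the floor on 5 of 6 arrays. Fcgr3 and Itga2, which did not pass the filter on dim probe sets, were lowest in TCRab CD8ab in each experiment. In that subset Fcgr3 had signals of 4.10 and 23.3, and Itga2 had 33.6 and 50.7. The part of NK cells in the Cd160 signal was not tested.

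Cd160 and Cd72 differed between the experiments. Experiment 2 minus experiment 1 was log2 −1.44 ± 0.23 for Cd160 (SE; limma adjusted p = 0.00194) and −1.26 ± 0.27 for Cd72 (adjusted p = 0.00708), and both genes were lower in experiment 2 in each subset. With the brightest Ceacam1 probe set, 3 of the 8 tested receptor probe sets differed between experiments, near the 34.1% of all tested probe sets. The mouse pool, the occasion and the quality of the RNA changed together between the experiments and cannot be told apart.

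Over the 5 genes, 8 of 10 probe sets passed the filter. In TCRab CD8aa against TCRab CD8ab, limma with the block called 1 of the 8, the shared Lilrb4a and Lilr4b probe set, beside 0.819% of all. In TCRgd CD8aa against TCRab CD8ab it called 0 of the 8 (1 at an unadjusted p under 0.05), beside 0.554% of all. In TCRgd CD8aa against TCRab CD8aa it called 0 of the 8 (2 at an unadjusted p under 0.05), beside 0.0241% of all. Without the block limma called 0 of the 8 and 0% of all in each comparison, with 1, 0 and 1 of the 8 at an unadjusted p under 0.05.

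The arrays of 2 subsets did not overlap in 2, 1 and 2 of the 8 receptor probe sets in these comparisons. Over all tested probe sets this held for 22.9%, 19.8% and 14.4%, so the counts for the receptors were near the background. The median difference of the 8 was −0.43, −0.09 and 0.72, beside −0.08, −0.06 and 0.00 over all tested probe sets. These medians pool the 2 experiments. Of the 8, 4, 2 and 2 were lower in both experiments, and 0, 1 and 3 were higher in both. In the third comparison Pirb alone had −0.23 and 1.95 in experiments 1 and 2. The dim probe set of Ceacam1 with Ceacam2 had −0.58 and 1.19, and the tested Ceacam1-only one 0 and 1.81.

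The list of ITIM effectors, kinases and adaptors gave 1 call, of an adaptor. Of 16 listed, 13 had a probe set with 1 symbol, and all 13 passed the filter. In TCRab CD8aa against TCRab CD8ab limma with the block called 0 of them (1 at an unadjusted p under 0.05), with a median of log2 0.38 beside −0.06 over 6109 genes. Signs changed from experiment 1 to 2 for Dok1 (1.33 and −0.53), Sh2d1b1 (2.05 and −0.39), Inpp5d (0.64 and −0.55), Csk (0.34 and −0.45), Grb2 (0.49 and −0.31) and Pag1 (−0.50 and 1.41). Ptpn6, Ptpn11, Inppl1, Fyn and Fgr were higher in both experiments, and Dok2 and Sh2d1a lower in both. In TCRgd CD8aa against TCRab CD8ab limma with the block called 1, lower, with a median of 0.17 beside −0.05. That gene was Sh2d1a, the adaptor SAP of SLAM receptors, with signals of 31.7 and 11.1 in TCRgd CD8aa and 411 and 263 in TCRab CD8ab and a difference of −3.90 ± 0.56 (SE, n = 2; limma adjusted p = 0.0173 with the block and 0.676 without it). The second of the TCRgd CD8aa arrays was at the floor, so the fitted difference depends on where the floor was set. Between the CD8aa subsets 0 were called (1 at an unadjusted p under 0.05), with a median of −0.21 beside 0.00.

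Ptpn6, which encodes the phosphatase SHP-1, was singled out after its values were seen. It had signals of 5045 and 719 in TCRgd CD8aa, 4499 and 1244 in TCRab CD8aa, and 2693 and 883 in TCRab CD8ab. TCRab CD8aa was above TCRab CD8ab by log2 0.74 and 0.49 in the 2 experiments, which did not pass (limma with the block, adjusted p = 0.602).

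Of 15 ligands and counter-receptors, 8 had a probe set with 1 symbol and 7 passed the filter. None of the 7 was called by limma with the block in any comparison, with 1, 1 and 2 at an unadjusted p under 0.05 in the order of comparisons above, and their medians were log2 −0.26, −0.11 and 0.05. The brightest were H2-K1 and B2m, the heavy and light chains of an MHC class I molecule of the kind Pirb binds. H2-K1 differed by −0.26, −0.11 and 0.15 and B2m by −0.28, −0.14 and 0.15, in the same order. Sema4d, the ligand of Cd72, looked up after its values were seen, differed by 0.46, 0.19 and −0.27 and was not called either.

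Among other receptors with inhibitory motifs, 9 of 19 had a probe set with 1 symbol and 5 passed the filter. Limma with the block called 1 of the 5, Cd5, as lower in both CD8aa subsets than in TCRab CD8ab. Cd5, which restrains T cell receptor signals, had signals of 3.90 and 100.2 in TCRgd CD8aa, 12.7 and 47.2 in TCRab CD8aa, and 2748 and 7775 in TCRab CD8ab. The log2 difference from TCRab CD8ab was −6.88 in TCRgd CD8aa and −7.43 in TCRab CD8aa on the scale with the floor, and 1 array of each was at the floor (adjusted p = 0.000408 and 0.000459 in limma with the block, 0.533 and 0.322 without it). Both CD8aa subsets were thus low in Cd5, whereas the shared Lilrb4a and Lilr4b probe set was low in TCRab CD8aa alone. The list medians were log2 0.55, 0.40 and 0.22. Of 13 relatives of the 5 genes, 5 had a probe set with 1 symbol, 3 passed the filter and 0 were called by limma with the block (1, 0 and 2 at an unadjusted p under 0.05), with medians of −0.77, −0.53 and 0.24. Psg17, a pregnancy-specific member of the Ceacam family, differed by −0.77, −0.53 and 0.24, and Lilr4b is given above. Ceacam2, the third, was looked up after its values were seen and differed by 0.58, −1.59 and −2.17. The probe set for Ceacam2 alone had signals of 15.4 and 11.8 in TCRgd CD8aa and 106 and 45.1 in TCRab CD8aa. It was at the floor on the TCRgd CD8aa array of experiment 2, where the probe sets shared with Ceacam1 were highest.

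**Figure D4:**
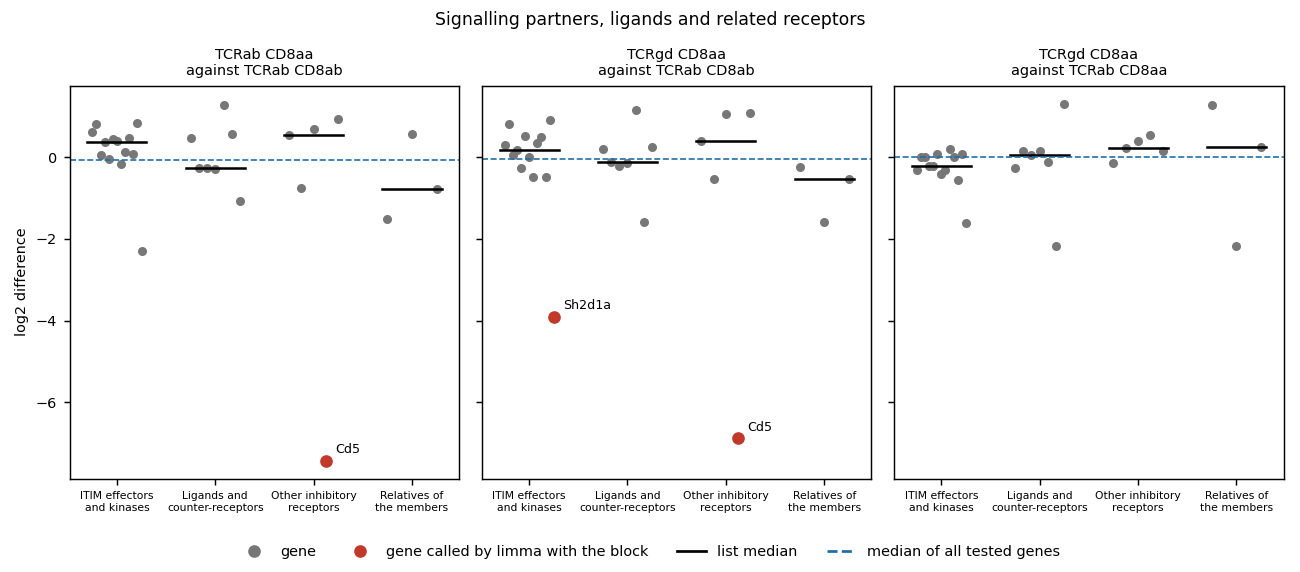
Log2 differences of the tested genes of 4 lists (grey; red where limma with the block called the gene), with the list median (black line) and the median of all 6109 tested genes (dashed). Sh2d1a at −3.90 and Cd5 at −7.43 and −6.88 stand below the other genes.

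Genes with the most similar pattern were found by the root mean square difference of log2 signal, centred on the mean of each experiment, over the 6 arrays. For the shared Lilrb4a and Lilr4b probe set these were Il9 (0.24), Zfp651 (0.25) and Hoxc5 (0.25), with log2 differences of TCRab CD8aa from TCRab CD8ab of −1.86, −2.09 and −1.66. For Lilr4b alone they were Casp4 (0.16), Slc3a1 (0.16) and Lypla1 (0.18), so the 2 probe sets shared no nearest gene. Cd72 was nearest to Glrx (0.07), Xpot (0.09) and Cxcr5 (0.10), and Cd160 to Cct5 (0.06), Sf3b2 (0.07) and Nop58 (0.09). The brightest Ceacam1 probe set was nearest to Hrc (0.05), Sec14l2 (0.09) and Map2k4 (0.10), and the Pirb probe set with 1 symbol to Dmp1 (0.07), Sfn (0.10) and Cadps (0.11). The root mean square of the centred values was 0.32 for Cd72 and 0.35 for Cd160, against 1.02 for the shared Lilrb4a and Lilr4b probe set. The dim probe set shared by Pirb and 6 other genes was nearest to Itm2a (0.11), that shared by Ceacam1 and Ceacam2 to Nr1d1 (0.15), and the tested Ceacam1-only one to Synpo (0.06).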

How the data were processed

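RNA of 3 IEL subsets was hybridised to 6 Affymetrix arrays. The authors deposited MAS5 signal intensity on a linear scale (MAS5 per the submitters' processing notes, version not given); probe positions and detection calls were not used here. The values show that each array had been scaled to a common trimmed mean, and the further factor applied was 0.999915 to 1.00006. Values under the 20th percentile (15.3) were set to it, log2 was taken, and probe sets with at least 2 arrays above the 40th percentile (56.4) were tested. This kept 8299 of 12422 probe sets after 66 controls were left out; 10833 carried 1 symbol, 396 several and 1193 none in the annotation, and symbols were updated through gene IDs to GRCm38.p6.

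Comparisons were fitted with limma 3.58.1 (R 4.3.3) to the 6 arrays together, moderated with a trend on mean intensity, and adjusted by Benjamini-Hochberg over all tested probe sets. An adjusted p under 0.05 is called. The planned fit had no block. The replicate number marks 2 experiments, each with its own pool of mice, per the series design, and changes between experiments correlated between subsets with Pearson's r of 0.603 to 0.713 across probe sets, so the fit with this block stands beside it. Standard errors are limma's moderated values from the blocked fit, pooled over the subsets. Without the block, p-values measure the spread between the arrays of a subset in the 2 experiments. With the block, they measure how differences between subsets vary from one experiment to the other. Neither measures the spread between mice. The fit was also run on simulated data that had no floor and changed only brighter probe sets, so that run does not cover dim receptors. The members and gene lists were chosen with earlier results of these data known. Named were all member probe sets, called genes of each list (otherwise its 2 brightest), and the 3 nearest genes by pattern, of which the first alone is printed for 3 dim probe sets. Summed marker signal took the brightest probe set of each gene. No 2 arrays shared more than 45 equal values. The number of arrays limits the precision.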

Additional observations from a re-analysis of the deposited data

How the results depend on the processing

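With 2 arrays per subset, few differences could pass. Without the block, limma called 0 member probe sets in each comparison and under every alternative run. With the replicate block, which follows the shared pools of mice, it called 1 in TCRab CD8aa against TCRab CD8ab (Lilrb4a with Lilr4b). That count was also 1 with the block and an added constant, a filter at the 60th percentile, quantile normalization, the floor moved to the 10th or 30th percentile, no further scaling, only the 2 subsets compared, or an adjusted p under 0.10. It was 0 with the block and no filter or no trend, where all probe sets called numbered 0 and 6 in place of 68. Leaving out 1 array gave 0 to 1 in this comparison, and 0 to 1 in TCRgd CD8aa against TCRab CD8aa, where a lone TCRgd CD8aa array was assumed to vary like the others. The blocked counts over all probe sets, left-out arrays included, reached 182, 193 and 114 in the 3 comparisons. The difference of the Lilrb4a and Lilr4b probe set kept its sign in TCRab CD8aa against TCRab CD8ab and in TCRgd CD8aa against TCRab CD8aa under every alternative run. Signs turned only when an array was left out, with or without the block, and the cause was not tested. For TCRab CD8aa against TCRab CD8ab the log2 difference then ranged from −0.50 to 1.21 for Pirb with 6 other genes, −0.97 to 0.39 and −0.96 to 0.058 for the bright and dim probe sets of Ceacam1 with Ceacam2, −1.68 to 0.44 for Ceacam1 alone, −0.87 to 0.11 for Cd72 and −1.14 to 0.33 for Cd160. For TCRgd CD8aa against TCRab CD8ab it ranged from −0.23 to 0.16 for Lilrb4a with Lilr4b, −1.09 to 0.63 for Pirb with 6 others, −1.03 to 0.34 for Pirb alone, −0.10 to 1.26 and −1.27 to 0.98 for Ceacam1 with Ceacam2, −1.06 to 1.63 for Ceacam1 alone, −0.72 to 1.12 for Cd72 and −1.64 to 0.0099 for Cd160. For TCRgd CD8aa against TCRab CD8aa it ranged from −1.32 to 0.16 for Pirb with 6 others, −0.31 to 2.02 for Pirb alone, −0.82 to 1.43 for the dim probe set of Ceacam1 with Ceacam2, −0.44 to 2.25 for Ceacam1 alone, −0.33 to 1.51 for Cd72 and −1.24 to 0.41 for Cd160. Signals near the floor of 15.3 limit the Pirb and dim Ceacam1 probe sets.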
